A study of Homo sapiens with 6 samples.

Results

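The keratin genes are the 55 protein-coding genes of the RefSeq table (assembly GRCh38.p14) whose symbol is KRT followed by a number and at most 1 letter from A to C. Keratin-associated protein genes were left out. The 55 genes are among 19974 protein-coding genes on chromosomes 1 to 22 and X, and they lie in a pair of clusters, 27 on chromosome 12 and 28 on chromosome 17. The assay was ATAC-seq: the Tn5 transposase cuts and tags DNA where chromatin is accessible, and peaks of the sequenced tags mark open regions. The cells were hTERT-RPE1, a human retinal pigment epithelial line immortalised with telomerase and wild type by its label, with no treatment named. By their titles the 6 libraries belong to a set R1 or a set R2, 3 to each, and every set comes as 1 pooled peak list. What distinguishes R1 from R2 is not in the labels, no spread between libraries could be computed, and no difference below carries a test.

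Keratins are the intermediate filament proteins of epithelial cells. A type I chain, encoded on chromosome 17 with the exception of KRT18, pairs with a type II chain, encoded on chromosome 12, and which pair a cell makes marks its kind of epithelium. KRT8 and KRT18 form the filaments of simple epithelia, the retinal pigment epithelium among them. KRT5 and KRT14 form those of basal keratinocytes, KRT1 and KRT10 those of the layers above, and the hair keratins build the hard filaments of hair and nail. The genes were grouped by these roles into 7 keratins of simple epithelia, 8 basal and stress keratins of stratified epithelia, 13 suprabasal and mucosal keratins, 9 of the inner root sheath and companion layer of the hair follicle, and 17 hair keratins. KRT222, a keratin-like gene, was kept apart.

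An open region is 1 peak of a list, and a gene was counted when a region lay in it or within 1000 bp of it. By this count 29 of the 55 keratin genes (52.7%) had a region in both lists, against 84.0% of all protein-coding genes (background of 16786 of 19974). Another 5 had a region in R2 alone, none in R1 alone, and 21 in neither list. Of all 19974 protein-coding genes, 126 had one in R2 alone, 234 in R1 alone and 2828 in neither. Keratin genes are short, with a median length of 6433 bp against 24170.5 bp over all protein-coding genes. Among genes with lengths between the quartiles of the keratin genes, 5218 to 9387 bp, 75.1% of protein-coding genes and 10 of 27 keratin genes (37.0%) had a region in both lists.

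Both clusters were below their chromosomes. On chromosome 12 the count was 13 of 27 (48.1%) against 85.7% of that chromosome's protein-coding genes, and on chromosome 17 it was 16 of 28 (57.1%) against 87.9%. By role, the count was 5 of 7 for keratins of simple epithelia, 13 of 17 for hair keratins, 4 of 8 for basal and stress keratins, 5 of 13 for suprabasal and mucosal keratins and 2 of 9 for the inner root sheath and companion layer. In some roles the clusters were unlike. All 4 basal and stress keratins of chromosome 17 (KRT14, KRT15, KRT16 and KRT17) had a region in both lists, and none of the 4 of chromosome 12 (KRT5, KRT6A, KRT6B and KRT6C) had one in either. All 4 genes of chromosome 12 placed in the simple-epithelium group (KRT7, KRT8, KRT18 and KRT80) had one in both lists, against 1 of 3 on chromosome 17. There KRT19 narrowly missed the count, with its nearest R1 region 1008 bp away. The placing was a choice, not a result of these data. For hair keratins the counts were 6 of 6 on chromosome 12 and 7 of 11 on chromosome 17, for suprabasal and mucosal keratins 2 of 8 and 3 of 5, and for the inner root sheath and companion layer 1 of 5 and 1 of 4. KRT6A, KRT6B and KRT6C are close copies of each other, as are KRT81, KRT83 and KRT86, and KRT33A and KRT33B. How reads that match more than 1 copy were treated is not given in the sources used here, so the values of these genes are uncertain.

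**Figure D1:**
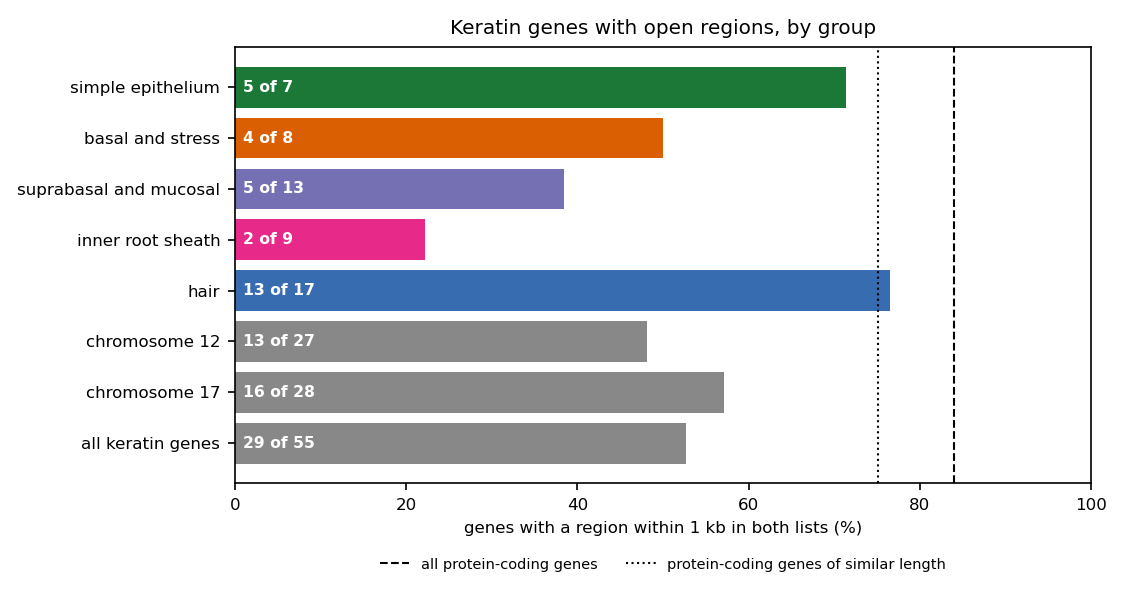
Keratin genes with a region within 1000 bp of the gene in both peak lists (%, horizontal axis), by role, by chromosome and in all, with the counts written in the bars. Dashed and dotted lines give the share of all protein-coding genes (84.0%) and of those of similar length (75.1%). Hair keratins reach 13 of 17 and inner root sheath and companion layer keratins 2 of 9.

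Each region has a fold enrichment over its local background, as the authors deposited it, used here only to describe regions and to rank them within a list. From the fold and the p-value of each region, the number of fragments over its summit and the background it was set against were inferred, by a relation that fitted every region but that no source states. Over all regions of a list the median fold was 5.04 in R1 and 5.12 in R2, the median number of fragments 72 in each, and the median background 11.6 and 11.5. Regions near keratin genes numbered 53 in R1 and 58 in R2, and 3 and 2 of them lay near a second keratin gene as well. Their median fold was 3.62 in R1 and 3.59 in R2, and 19 in each list reached the list's median. Fragments over the summit had medians of 91 in R1 and 75 in R2. Over all protein-coding genes with a region, the strongest had median folds of 8.74 (R1) and 8.67 (R2), longer genes with more regions among them. Over the keratin genes with a region in the list, the medians on chromosome 12 were 5.06 (R1, 13 genes) and 3.98 (R2, 15 genes). On chromosome 17 they were 5.6 (16 genes) and 4.83 (19 genes). The R2 medians include genes with a region in R2 alone, so the lists' medians are not over the same genes.

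KRT8 encodes the type II keratin of simple epithelia and had 6 regions in each list. The one with the highest fold, chr12:52924824-52927742 in R1, lay inside the gene with folds of 5.99 (R1) and 6.34 (R2). It held 334 fragments in R1 (exact Poisson 95% interval 299.1 to 371.8) and 338 in R2, over backgrounds of 54.9 and 52.5. The promoter sequence of KRT8 in the RefSeq promoter table lies within it. Another region inside KRT8, chr12:52903297-52905516 in R1, had folds of 5.17 and 6.22 with 288 and 339 fragments. KRT8 was the only keratin gene with a region over a promoter window of the RefSeq promoter table in both lists.

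That table gives starts for 34 of the 55 genes, 14 on chromosome 12 and 20 on chromosome 17. A window runs from 250 bases before a start to 50 after it, and 38 windows were listed, since KRT85 and KRT40 have several starts. Among protein-coding genes in the table, 69.1% had a region over a window in both lists. For keratin genes the count was 1 of 34, although 16 of the same 34 had a region somewhere within 1000 bp of the gene. KRT25, an inner root sheath keratin, had one only in the R2 list, of fold 2.96. The median distance from a keratin start to the nearest region was 3626.5 bp for R1 and 3612 bp for R2, while over all protein-coding genes in the table it was 0 bp in each list. The table gives 1 start for KRT8. It lies inside the gene's interval of 52670 bp, the longest among keratin genes, and the interval extends upstream of it. Other starts of KRT8 were not examined, so this window need not be the promoter most used. KRT1, KRT6A, KRT6B, KRT6C, KRT7, KRT13, KRT14, KRT15, KRT16, KRT17, KRT18, KRT19, KRT23, KRT72, KRT77, KRT78, KRT80, KRT81, KRT83, KRT86 and KRT222 have no entry. Among them are all basal and stress keratins but KRT5 and all simple-epithelium keratins but KRT8 and KRT20. Whether a region lies over their starts was not examined, so the promoter count says little about these roles.

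The 250 bases before the start are shown for KRT8, for the hair keratin genes KRT32, KRT34 and KRT33B, whose strong regions lie away from the start, and for KRT2 and KRT24, which have no region within 1000 bp. Sequences are from RefSeq, build GRCh38.p14, written 5′ to 3′ along the gene, and capitals mark TATAAA along the gene and CACCC on either strand (read as GGGTG when on the other strand).
KRT8, chr12:52926470-52926719, minus strand: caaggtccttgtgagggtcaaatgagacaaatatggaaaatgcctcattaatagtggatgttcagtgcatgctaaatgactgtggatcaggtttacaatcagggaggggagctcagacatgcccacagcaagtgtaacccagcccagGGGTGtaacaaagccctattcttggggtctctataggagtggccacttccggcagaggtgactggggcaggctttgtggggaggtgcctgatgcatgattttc
KRT32, chr17:41467387-41467636, minus strand: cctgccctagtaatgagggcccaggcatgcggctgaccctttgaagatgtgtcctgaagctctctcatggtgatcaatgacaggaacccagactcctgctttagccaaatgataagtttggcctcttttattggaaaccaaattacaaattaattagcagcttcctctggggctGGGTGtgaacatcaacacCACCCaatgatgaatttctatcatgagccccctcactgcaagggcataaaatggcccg
KRT34, chr17:41382307-41382556, minus strand: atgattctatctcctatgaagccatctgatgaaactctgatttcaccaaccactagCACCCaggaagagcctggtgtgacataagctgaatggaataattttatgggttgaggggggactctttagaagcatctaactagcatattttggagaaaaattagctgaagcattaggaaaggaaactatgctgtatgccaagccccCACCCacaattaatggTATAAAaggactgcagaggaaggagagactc
KRT33B, chr17:41369814-41370063, minus strand: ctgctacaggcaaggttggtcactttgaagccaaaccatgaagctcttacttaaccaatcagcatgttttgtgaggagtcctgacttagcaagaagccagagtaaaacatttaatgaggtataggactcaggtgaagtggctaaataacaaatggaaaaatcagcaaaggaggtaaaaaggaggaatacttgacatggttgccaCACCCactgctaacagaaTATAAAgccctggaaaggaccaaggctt
KRT2, chr12:52652212-52652461, minus strand: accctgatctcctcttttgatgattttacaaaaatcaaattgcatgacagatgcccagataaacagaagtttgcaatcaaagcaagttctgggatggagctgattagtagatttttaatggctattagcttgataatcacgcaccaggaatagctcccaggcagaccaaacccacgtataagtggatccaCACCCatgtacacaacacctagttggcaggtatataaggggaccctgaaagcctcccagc
KRT24, chr17:40703753-40704002, minus strand: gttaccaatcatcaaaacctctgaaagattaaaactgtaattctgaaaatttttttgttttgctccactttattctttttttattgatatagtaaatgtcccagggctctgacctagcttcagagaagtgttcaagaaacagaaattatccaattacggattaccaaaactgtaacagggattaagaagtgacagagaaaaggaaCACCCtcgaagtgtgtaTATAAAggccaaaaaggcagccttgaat

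The keratin windows were poor in CG. The 250 bases before the start held a median of 2 CG dinucleotides (from 0 to 7) and 45.0% G or C, against 16 CG and 62.0% over the 22156 windows of all protein-coding genes in the table. Among protein-coding genes with no more than 3 CG before any start, 12.8% had a region over a window in both lists, and among the 28 keratin genes with so few, 1 did. TATAAA, the core of the TATA box, or its reverse complement was present in 21 of 38 keratin windows (55.3%) and 9.0% of all windows. CACCC, a motif of KLF factors, was present in 29 (76.3%) and 58.4%, and the CCAAT box, CCAAT, in 17 (44.7%) and 32.7%. The GC box, GGGCGG, was present in 4 (10.5%) against 53.7%. TGANTCA, the motif of AP-1, was found in none of the 38 and in 5.36% of all windows, GGAATG, of TEAD, in 5 (13.2%) and 10.5%, CACCTG, bound by ZEB and SNAI factors, in 6 (15.8%) and 17.1%, and GCCNNNGGC, of AP-2, in 5 (13.2%) and 23.4%. Both strands were searched, and matches to CACCC overlapped CCAAT in 4 keratin windows and GGGCGG in 2. The windows belong to related genes and share sequence, and a match is not a bound site.

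KRT18, the partner of KRT8, is the only type I gene on chromosome 12, and its interval overlaps that of KRT8. Its region with the highest fold, chr12:52949057-52950221 in R1, overlaps both intervals and had folds of 3.62 and 3.81, with 233 and 247 fragments over backgrounds of 63.6 and 64.2. KRT7, another type II keratin of simple epithelia, had 4 regions in R1 and 3 in R2, led by chr12:52243422-52244868 with folds of 7.18 and 7.23 and 373 and 367 fragments. That region also lies within 1000 bp of KRT7-AS. KRT80 had 6 regions in each list, led by chr12:52190950-52192865 across an end of the gene, with folds of 6.04 and 6.30. Its 466 fragments in R1 and 446 in R2 were the highest numbers among the strongest regions of all keratin genes.

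The simple-epithelium keratins of chromosome 17 were less alike. KRT23 had 3 regions in each list, and the strongest, chr17:40922043-40923144 across an end of the gene, had folds of 10.5 and 10.8 with 142 and 156 fragments. The lncRNA gene LOC105371777 lies within 1000 bp of it. KRT19, which encodes the smallest keratin, had an R2 region 965 bp from the gene, at 6.71-fold and 213 fragments. The R1 region overlapping it, at 7.30-fold and 240 fragments, was 1008 bp away, so KRT19 fell just outside the count for both lists. The next genes outside 1000 bp were KRT38 and KRT33A in R1, at 1721 and 1747 bp, and KRT20 in R2, at 1793 bp, and KRT14 in R2 was just inside at 953 bp. KRT20, the keratin of intestinal lining cells, had a region in neither list, and its nearest R1 region was 2212 bp away.

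By fold and by fragments the order of the keratin genes differed. The number of fragments over the strongest region was above that of 90% of the list for 5 members in R1, KRT80, KRT86, KRT7, KRT8 and KRT32, and for 4 in R2, the same without KRT32. By fold, KRT23 and KRT32 alone passed that mark, in both lists. The backgrounds at KRT80, KRT86, KRT81 and KRT18 were between 63.6 and 87.8 in R1 and between 62.5 and 78.8 in R2, above 52.8 and 53.2, the levels that 95% of regions of each list did not exceed. In R1 KRT8 lay above that level too, and KRT7, at 51.1 in R1 and 49.9 in R2, just below it. Fold is relative to this background, and the regions of KRT80, KRT86, KRT7 and KRT8 had moderate folds with many fragments.

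**Figure D2:**
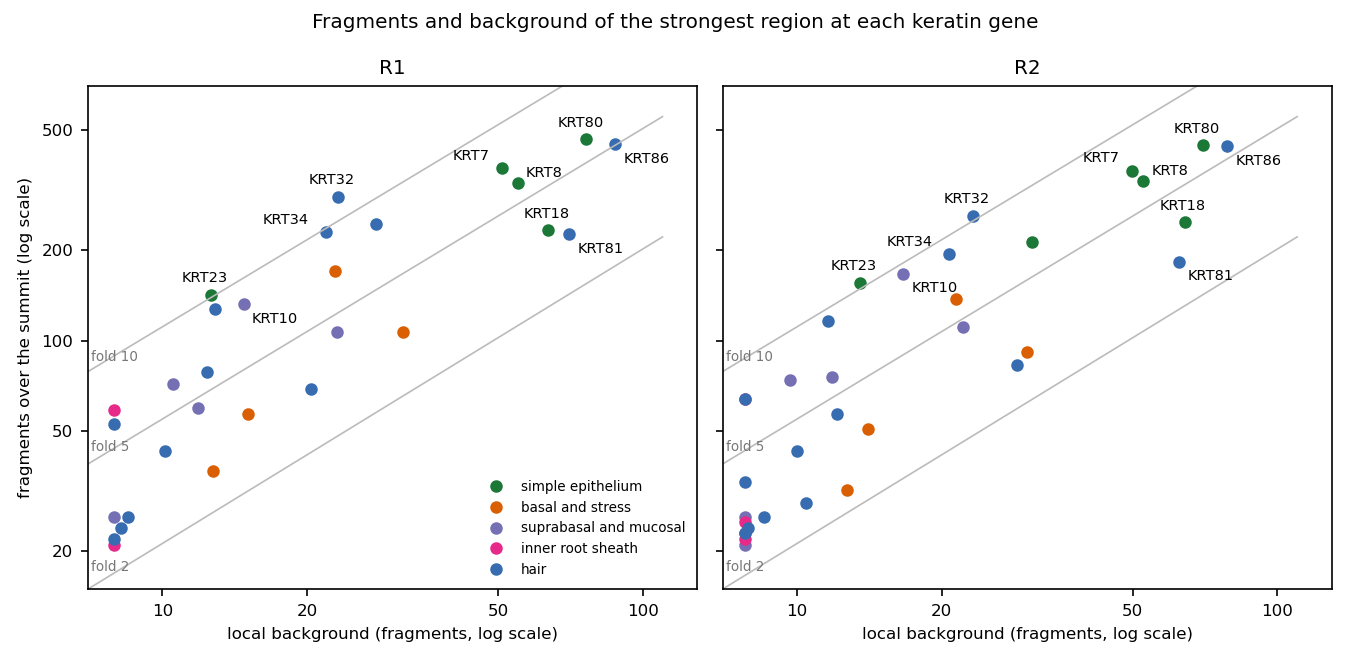
Fragments over the summit (vertical axis, log scale) against local background (horizontal axis, log scale) for the strongest region by fold at each keratin gene, in R1 (left) and R2 (right), with grey lines of equal fold. KRT80 (466 and 446 fragments) and KRT86 (448 and 443) lie at high background, while KRT32 (300 and 260) reaches a higher fold at lower background.

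Hair keratins held some of the highest folds and some of the faintest regions among the members. KRT32 had a single region, chr17:41464354-41465531, inside the gene, at 12.5-fold with 300 fragments in R1 and 10.8-fold with 260 in R2. Its summit lay 2505 bp downstream of the start in R1 and 2510 bp in R2. KRT34 had folds of 10.1 and 8.97 at chr17:41379844-41380865, with summits 2011 and 2006 bp downstream of the start, and KRT33B 9.25 and 9.30 at chr17:41367423-41368539, 1874 and 1976 bp downstream. In these 3 genes the region lay inside the gene and did not reach the printed promoter sequence.

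KRT39 had 3 regions in each list. The one with the highest fold in R1 was chr17:40956482-40957563, 854 bp from the gene, at 8.49-fold, and in R2 it was chr17:40963980-40964505, inside the gene, with a fold of 7.39. Each of these places was open in the other list too, at 7.23-fold in R2 for the former and 6.61-fold in R1 for the latter. KRT86 spans 34519 bp, overlaps KRT81, and had folds of 5.06 and 5.57 with 448 and 443 fragments at chr12:52278880-52281549, which also lies within 1000 bp of KRT86-AS2. KRT81 had folds of 3.18 and 2.90 in a region that counts for KRT86 as well. KRT85 had folds of 5.99 and 4.43 at 811 and 891 bp from the gene. KRT84 had 6.05 and 3.98, with 53 fragments in R1 (exact Poisson 95% interval 39.7 to 69.3) and 34 in R2 (23.5 to 47.5). These intervals cover counting error only. They overlap, which is not a test of the difference.

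Other hair keratins had weak regions. KRT36 had folds of 3.95 and 4.0 at 483 and 629 bp from the gene, KRT37 3.28 and 2.83, KRT31 2.85 and 2.80, KRT82 2.58 and 2.73, and KRT83 2.72 and 2.62. The regions of KRT83 in the 2 lists did not overlap each other. For KRT38 only the R2 list held a region, of fold 2.83 and 26 fragments. KRT33A, KRT35 and KRT40 had none within 1000 bp in either list. The nearest to KRT33A was 1747 bp away in R1 and 9314 bp in R2, that to KRT35 3012 and 2942 bp, and the nearest region to KRT40 was 11646 bp away in R1 and 11687 bp in R2.

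Among basal and stress keratins, KRT16, a type I keratin induced in wounded and hyperproliferative epidermis, had the strongest region, chr17:41612555-41613572, across an end of the gene, with folds of 7.16 and 6.2 and 170 and 138 fragments. KRT17, induced in the same settings, had folds of 3.61 and 3.45 inside the gene, with 57 and 51 fragments. KRT15, a basal keratin, had 3.31 and 2.99 at 46 and 44 bp from the gene. KRT14, the type I chain of basal keratinocytes, had the weakest, with folds of 2.76 and 2.41 and 37 and 32 fragments, 880 and 953 bp from the gene. KRT5, its partner, had its nearest region 2252 bp away in R1 and 7046 bp in R2, KRT6B 3537 and 3417 bp, KRT6A 13768 and 13746 bp, and KRT6C 25402 and 25282 bp.

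Of the suprabasal and mucosal keratins, KRT10 had the strongest region, chr17:40818412-40819826, with folds of 8.44 and 9.51 and 132 and 167 fragments. It lay inside the gene with its summit 3438 bp downstream of the start in R1 and 3500 bp in R2, and KRT10-AS1 lies within 1000 bp of it. KRT1, the partner of KRT10 in epidermis, had its nearest region 60948 bp away in R1 and 60977 bp in R2. KRT78 had folds of 6.34 and 7.03 and KRT79 4.74 and 6.0, each with 2 regions in each list. KRT13, the mucosal type I keratin, had 4.48 and 4.83 at 253 and 366 bp from the gene, and its partner KRT4 was counted only in R2, by a region of fold 2.5 and 21 fragments. KRT12, of the corneal epithelium, had 3.02 and 3.07 with 26 fragments in each list, and its partner KRT3 had its nearest region 2801 and 2806 bp away. KRT2, KRT9, KRT24, KRT76 and KRT77 had no region in either list, the nearest lying between 7248 bp (KRT9) and 61110 bp (KRT2) away.

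Keratins of the inner root sheath and companion layer had 2 regions in R1 and 4 in R2. KRT28 had folds of 6.72 and 7.39 with 59 and 64 fragments at the far end of the gene, 8001 and 7988 bp downstream of the start. KRT75, of the companion layer, had 2.46 and 2.73 with 21 and 23 fragments. KRT71 and KRT25 were counted only in R2, at folds of 2.62 and 2.96 with 22 and 25 fragments, and KRT26, KRT27, KRT72, KRT73 and KRT74 had none. The nearest region to these 5 genes lay between 2133 bp (KRT72, R1) and 24122 bp (KRT73, R2) away. KRT222 had none either, with its nearest region 5750 bp away in R1 and 5770 bp in R2.

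**Figure D3:**
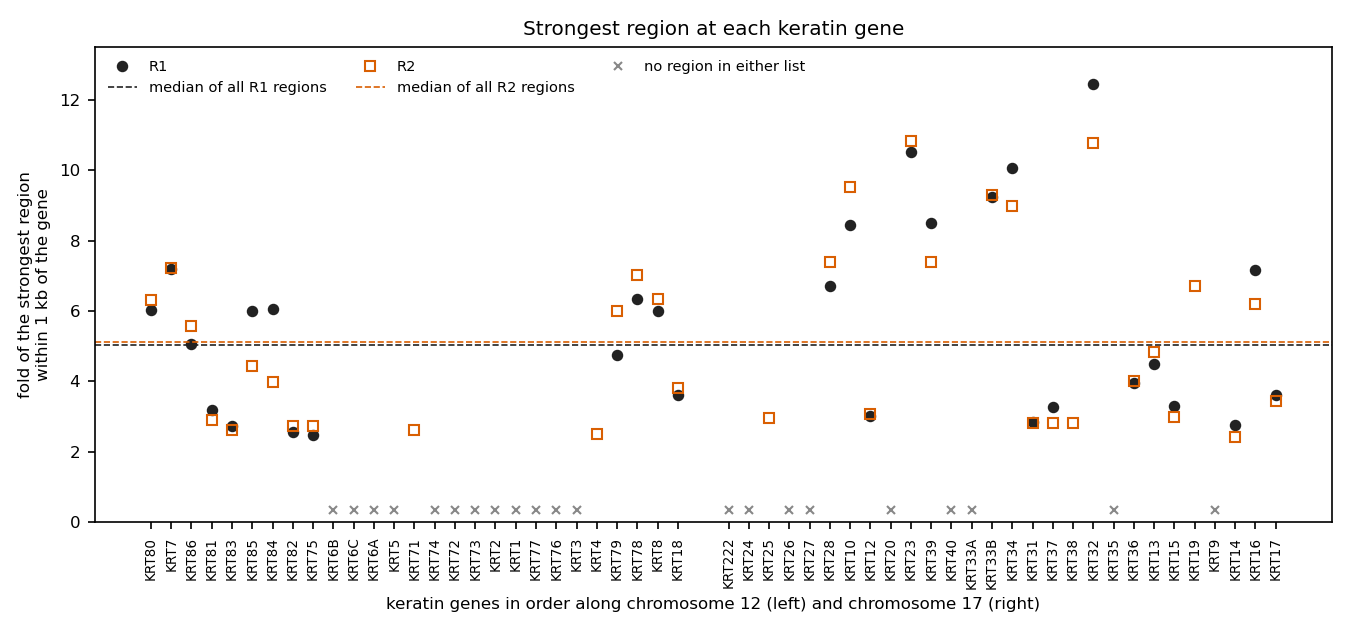
Fold of the strongest region within 1000 bp of each keratin gene (vertical axis) in R1 (filled circles) and R2 (open squares), in order along chromosomes 12 and 17. Dashed lines give the median fold of all regions of each list (5.04 and 5.12), not of the strongest region per gene. Crosses mark the 21 genes with no region in either list, and KRT32 is highest in R1 at 12.5.

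Where the table gives the strand, the summit of the strongest region lay at a median of 3917 bp downstream of the start over 16 members for R1 and 3341 bp over 20 for R2. In R2 those of KRT25 and KRT4 lay upstream, by 212 and 501 bp. Most of the counted interval of a gene lies downstream of its start, so no direction is read from this. Over all members with a region, the summit of the strongest lay inside the gene for 17 of 29 in R1 and 18 of 34 in R2. The 5 members with a region in R2 alone, apart from KRT19, had between 21 and 26 fragments. The strongest region had under 30 fragments for 5 of 29 members in R1 and 9 of 34 in R2. Over all regions of a list the shares were 16.6% in R1 and 16.1% in R2. Those shares are not limited to the strongest region of each gene, so they are not a like comparison.

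The lists mostly marked the same places. Of the 53 R1 regions near keratin genes, 50 (94.3%, exact Clopper-Pearson 95% interval 84.3 to 98.8) shared at least 1 bp with an R2 region, against 87.3% of all R1 regions. Of the 58 R2 regions near keratin genes, 50 (86.2%, interval 74.6 to 93.9) overlapped an R1 region, against 91.8% of all R2 regions. The intervals cover counting error only and treat neighbouring regions as independent.

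Both clusters held more regions per Mb than their chromosomes and fewer than the sequence beside them. The chromosome 12 cluster, chr12:52168996-52952906, held 61 regions found in both lists, or 77.8 per Mb, against 45.8 per Mb over the chromosome. The chromosome 17 cluster, chr17:40654665-41624575, held 77, or 79.4 per Mb, against 61.0. The 500000 bp on either side held 102 and 108 per Mb around the chromosome 12 cluster and 116 and 112 around that of chromosome 17. Within 1000 bp of a keratin gene lay 28 of the 61 regions on chromosome 12 and 22 of the 77 on chromosome 17. The chromosome 17 cluster also contains 34 keratin-associated protein genes, which encode matrix proteins of hair. Of these, 12 (35.3%) had a region in both lists, against 87.9% of that chromosome's protein-coding genes, with no matching for length.

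Regions were unevenly spread along the chromosome 12 cluster. The longest stretch without a region of either list there was 157.9 kb, chr12:52583457-52741354, and it contains KRT72, KRT73, KRT2, KRT1 and KRT77 entirely. The next longest there, 63.77 kb, contains KRT6B, KRT6C and KRT6A. On chromosome 17 the longest inside the cluster was 71.47 kb, chr17:41212592-41284057, and contains no keratin gene. One of 72.93 kb, chr17:40648916-40721848, begins before the cluster's first gene and contains KRT222 and KRT24. On chromosome 12 the members with a region in both lists thus lay at the flanks, from KRT80 to KRT75 and from KRT79 to KRT18, with the 14 genes from KRT6B to KRT4 between them, of which KRT71 and KRT4 had a region in R2 alone. On chromosome 17 the first members, from KRT222 to KRT27, had none, apart from KRT25 in R2 alone. From KRT28 on, members with and without a region were interspersed.

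The clusters differed in the strength of all their regions by a modest amount. On chromosome 12 the median fold was 4.14 in R1 and 3.98 in R2, against 5.10 and 5.12 over the chromosome. On chromosome 17 it was 4.88 and 5.87, against 4.48 and 4.66. The median background was 17.6 and 15.8 in the chromosome 12 cluster and 14.04 and 13.29 in that of chromosome 17, against 11.7 and 11.6 over chromosome 12 and 15.3 and 14.9 over chromosome 17. The part of the background in the difference of fold was not tested.

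**Figure D4:**
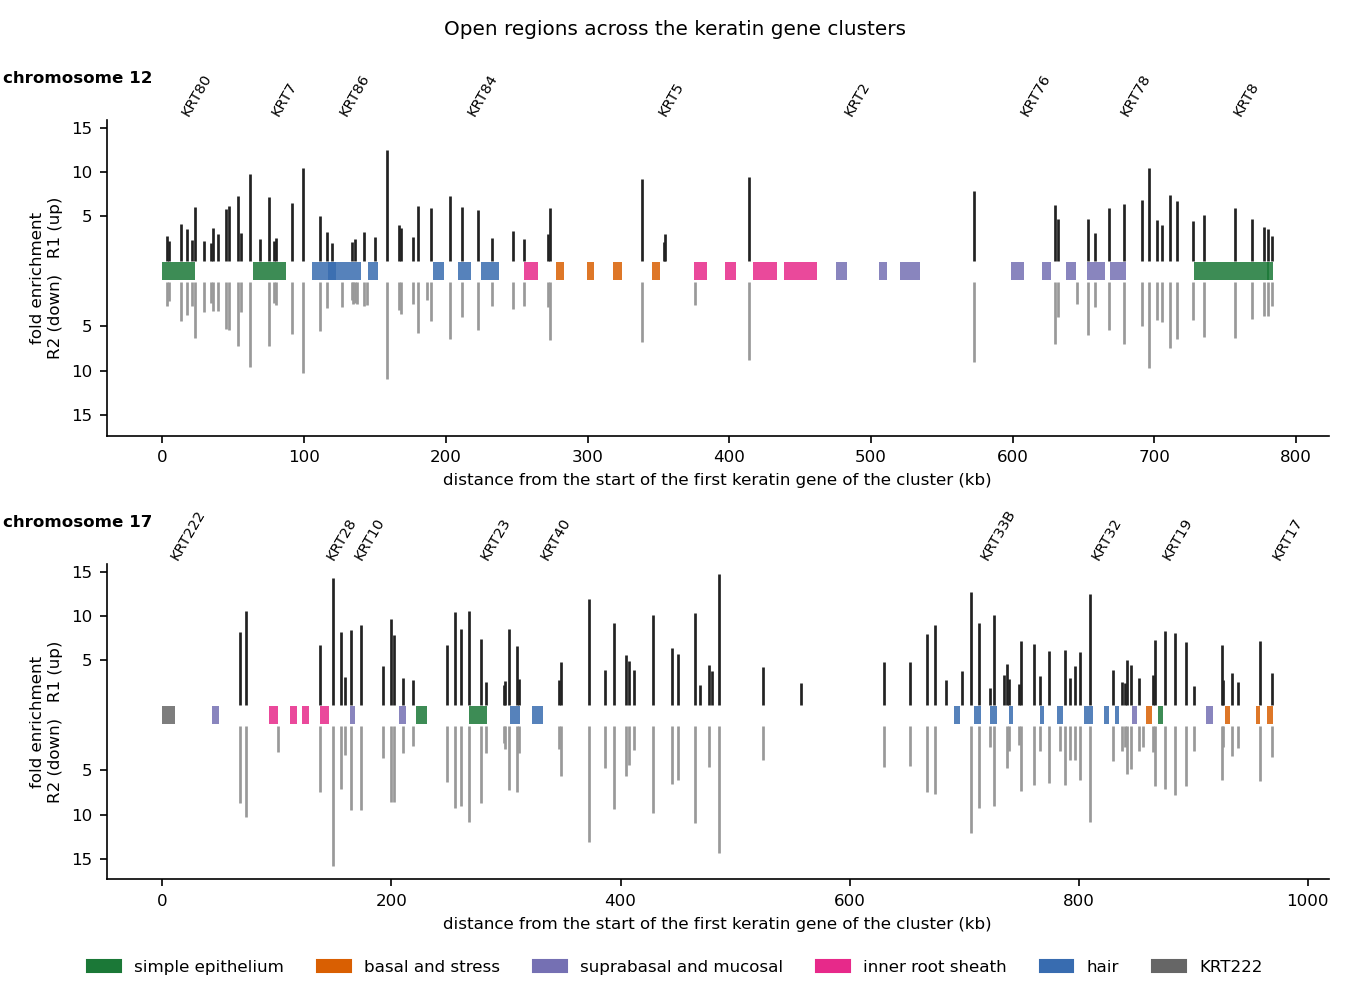
Fold of every region (vertical axis, R1 upward, R2 downward) along the chromosome 12 and chromosome 17 keratin clusters (horizontal axis, kb from the start of the first keratin gene), with keratin genes as boxes coloured by role. The stretch of 157.9 kb without a region around KRT2 stands out on chromosome 12, and on chromosome 17 one of 71.47 kb lies among keratin-associated protein genes.

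Most of the 5 strongest regions of each cluster lay more than 1000 bp from any keratin gene, as did most regions there of any strength. On chromosome 12 the highest mean percentile of fold belonged to chr12:52327195-52328331, 5797 bp from KRT83, with folds of 12.5 and 11.0. The next 4 there lay 5847 bp from KRT86 (10.4 and 10.2), 16212 bp from KRT78 (10.4 and 9.67), 1580 bp from KRT7 (9.76 and 9.59) and 2133 bp from KRT72 (9.43 and 8.80). On chromosome 17 it belonged to a narrow region of 422 bp, chr17:40803612-40804033, 3653 bp from KRT28 in the lncRNA gene LOC105371776, with folds of 14.2 and 15.7. Next on chromosome 17 were regions at KRTAP4-6 with 14.8 and 14.3, at 2294 bp from KRT33B with 12.7 and 12.1, and at KRTAP1-5 with 11.9 and 13.1. Of the 5 strongest in each cluster, the region inside KRT32 was the only one within 1000 bp of a keratin gene. Of all regions found in both lists, 33 of 61 in the chromosome 12 cluster and 55 of 77 in that of chromosome 17 lay farther away than that.

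Genes of keratin-anchoring junctions, of other intermediate filaments and of regulators were counted in the same way, over whole genes of any length. Of 20 genes of desmosomes and hemidesmosomes, the junctions that anchor keratin filaments, 20 had a region in both lists, led by DSG1 with folds of 16.1 and 14.4, DSG3 with 14.5 and 14.1 and DSC3 with 12.5 and 11.1. Of 16 other intermediate filament genes 14 did, led by SYNM with 12.2 and 13.4, BFSP1 with 11.3 and 9.63 and BFSP2 with 9.29 and 9.17, and NEFL and NEFM did not. VIM, the vimentin gene, had folds of 5.04 and 4.13. Of 18 genes of factors that regulate keratin genes or epithelial identity 17 did, led by TP63 with 14.3 and 14.4, ZEB2 with 13.0 and 11.1 and EHF with 10.6 and 10.7, and TFAP2C did not. These shares of 20 of 20, 14 of 16 and 17 of 18 stand beside the 84.0% of all protein-coding genes.

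The markers of the labelled cell type were checked by the same count. All 10 retinal pigment epithelium markers had a region in both lists, from MERTK, the highest by mean percentile with folds of 11.9 and 12.2, to TTR, the lowest with 3.69 and 2.73. OTX2, RLBP1 and TTR were below the median fold of all regions, 5.04 in R1 and 5.12 in R2, in both lists. Over protein-coding genes with a region, the strongest region had median folds of 8.74 and 8.67. BEST1, LRAT and RPE65 were below these in both lists as well, and TYR in R2 alone. Of 8 markers of stratified epithelium 6 did, KRT5 and LY6D being without one, from DSG3 with 14.5 and 14.1 to KRT14 with 2.76 and 2.41. All 8 markers of fibroblasts did, from FBN1 with 10.7 and 12.1 to TWIST1 with 6.88 and 5.94. With a background of 84.0% such counts separate cell types poorly, and an open region is not a measure of a gene's RNA.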

How the data were processed

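ATAC-seq libraries of hTERT-RPE1 cells were pooled into 1 peak list for each of the sets R1 and R2. Per the submitters' processing notes the coordinates are hg38. Which aligner and peak caller were run, and how Tn5 offsets and multiply matching reads were handled, is not given in the sources used here. For every peak the deposited columns hold a fold over background, which is a ratio, then −log10 of the p-value, −log10 of the q-value and the summit's offset. The lists held 143492 and 134940 peaks, and those on chromosomes 1 to 22 and X, 142865 and 134351, were used. No peaks of a list overlapped.

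Fragments over the summit and local background were recovered from 2 assumed relations: that the fold has 1 added to fragments and to background before division, and that the deposited p is a Poisson tail above the observed number. A whole number gave the deposited −log10 p-value within 0.001 for 100% of the peaks of both lists. No source states this relation, nor whether the units are fragments or reads. The depth of single libraries is unknown.

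Genes came from RefSeq (GRCh38.p14) and promoter windows from its table of starts. The members and lists were chosen with earlier results of these data known. Every member is accounted for. Members with a region in both lists have both values, those with a region in 1 list have that value, and of each partner list the 3 best by mean percentile of fold are named, with VIM added after its values were seen. The promoters of KRT20 and KRT26, which the rule also takes, are not printed, and those of KRT32, KRT34 and KRT33B were added after the data were seen. Alternatives varied the window, the threshold on q, the part of each list by fold, the lists and the overlap. The search for overlaps and the recovery of fragments and background were tested on simulated data, and the other steps were not. For the recovery, the data were made by the same assumed relations, at backgrounds below those of KRT80 and KRT86. Versions were scipy 1.17.1, numpy 2.4.6, pandas 2.3.3 and matplotlib 3.10.9, under Python 3.11.15.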

Additional observations from a re-analysis of the deposited data

Results flagged for a closer look

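Sequences other than the assembled chromosomes carried peaks that the counts above do not use. Unplaced or alternate sequences named for chromosome 17 held 47 peaks in R1 and 52 in R2. They lay on 3 sequences, and their median folds were 3.69 and 3.36. They are given here because no comparison above uses them. No sequence of this kind named for chromosome 12 appears in either list. The gene table gives no positions on these sequences, so none of these peaks was placed against a keratin gene.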

How the results depend on the processing

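Of 13 alternatives to the count of 29 keratin genes, 12 gave a count within 1.5 times of it. With peaks at or above the median fold of their list alone it was 13, 5 on chromosome 12 and 8 on chromosome 17, where 71.7% of all protein-coding genes were counted. Within 1000 bp of an end of the gene the chromosome 12 count was 8, where 73.9% of all protein-coding genes were counted. The same stronger peaks gave 31.9 regions per Mb in the chromosome 12 cluster and 43.3 in that of chromosome 17, where the whole chromosomes held 24.2 and 29.1. The share of R1 regions near keratin genes found in R2 was 81.1% when 0.5 of each region had to overlap and 100% at −log10 q of at least 10. The promoter count of 1 became 2 within 1000 bp of a start, with KRT39 added, where 74.3% of genes in the table were counted, and 2 with R2 alone, with KRT25 added. Of 29 strongest folds, 28 were within 1.5 times between the lists, KRT84 being the exception with 6.05 and 3.98. Leaving out single libraries could not be run on pooled lists. No paired analysis was possible because each list pools 3 libraries and no result comes from a test.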

Other observations

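Some of the start-proximal sequences of type I keratin genes shared an arrangement that was noticed after the motif matches had been seen. CACCC began 50 to 40 bases before the start, and TATAAA 35 to 20 bases before it, in 10 of the 23 windows of chromosome 17 keratin genes and in 0 of the 15 of chromosome 12. In the printed sequences of KRT34, KRT33B and KRT24 both stand in capitals near the right end. Among 22156 windows of protein-coding genes, 29 (0.131%) had both. Of these, 4 belong to keratin-associated protein genes and 15 to genes outside both families. The 10 keratin genes were KRT10, KRT24, KRT27, KRT31, KRT33A, KRT33B, KRT34, KRT37, KRT38 and KRT40, related genes that share sequence. Of these, 5 had a region within 1000 bp of the gene in both lists, 1 in R2 alone and 4 in neither, and none had one over the promoter window in either list.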
